A study of Mus musculus with 7 samples.

Results

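The photoreceptor ribbon synapse genes described here are Ctbp2, Bsn, Pclo, Rims2, Cacna1f, Cacna2d4, Cabp4, Cplx3, Cplx4 and Unc119. They were chosen by name as 10 genes of the photoreceptor terminal, and their peaks are those of the merged H3K18La peak set that carry the symbol of 1 of the 10 genes. This gave 85 of 108253 peaks. The retinas of C57Bl/6J mice were dissociated with papain at postnatal days 4, 10 and 28 (P4, P10 and P28), and histone H3 lactylated at lysine 18 (H3K18La) was mapped by CUT&Tag, in which an antibody directs an enzyme to cut or tag the DNA beside the mark. The youngest age and P10 had 2 libraries each and P28 had 3, the labels name no treatment for any of them, and P28 replicate 1 was the only library that the labels place in batch 2. The labels do not say which libraries came from separate animals, so p-values measure the spread between these libraries. The question was how the mark over these genes differs between the ages.

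Photoreceptors release glutamate continuously in the dark, and they do so at ribbon synapses, where a plate-like ribbon holds a pool of vesicles above the active zone. RIBEYE, made from the Ctbp2 gene, is the main protein of the ribbon. Bassoon (Bsn), piccolo (Pclo) and RIM2 (Rims2) are large active-zone proteins, Cacna1f, Cacna2d4 and Cabp4 encode the L-type calcium channel of the terminal with its auxiliary subunit and calcium-binding regulator, and the complexins Cplx3 and Cplx4 act on the SNARE fusion machinery. UNC119 is a carrier of lipid-modified proteins found in photoreceptor inner segments and terminals.

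Each gene had 1 or more promoter peaks, which the authors' annotation places next to a transcription start site. The promoter peak nearest a start site was taken first, and there were 10 of these. A further 5 peaks were other promoter peaks, 60 were internal (exon, intron or untranslated region) and 10 lay outside the gene. Rims2 had 25 peaks, Pclo 19, Cacna2d4 15, Bsn 9 and Cplx4 7, and the other genes had 2 each. Levels are RPKM, reads per kilobase of peak after the authors' correction for depth. Changes are differences of log2(RPKM + 1), which understate the change of weak peaks, and a peak is called higher or lower at a Benjamini-Hochberg adjusted p under 0.01 from limma over all peaks.

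The promoters that carry the mark differ in sequence, so those of 6 genes are shown with the start site after base 250 of 300. RefSeq promoters of build GRCm38.p6 were matched for 6 of the 10 genes (9 promoters), and no entry was matched for Cabp4, Cacna2d4, Rims2 and Cplx4. Capitals mark a GC box (GGGCGG), a CRX-type site (TAATCC), an NRL-type motif (TGCTGA), an E-box (CAGCTG) or a TATA box (TATAAA), searched on both strands. The RIBEYE start of Ctbp2 (chr7:133015198-133015497, minus strand), the start of Cplx3 (chr9:57606232-57606531, minus strand) and the start of an internal Unc119 transcript (chr11:78345334-78345633, plus strand) belong to genes whose peak was called higher at both later ages. The start of Cacna1f (chrX:7606853-7607152, plus strand) belongs to a gene whose peak was called higher at P28 only. The starts of Pclo (chr5:14514668-14514967, plus strand) and Bsn (chr9:108190334-108190633, minus strand) belong to the genes whose peak was called at neither.

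Ctbp2 RIBEYE start: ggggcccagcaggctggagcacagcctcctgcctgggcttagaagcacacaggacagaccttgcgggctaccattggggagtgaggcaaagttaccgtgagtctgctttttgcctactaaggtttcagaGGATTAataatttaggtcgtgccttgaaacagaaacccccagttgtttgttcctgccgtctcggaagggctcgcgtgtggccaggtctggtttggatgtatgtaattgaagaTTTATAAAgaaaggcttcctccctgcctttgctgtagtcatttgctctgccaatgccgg

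Cplx3: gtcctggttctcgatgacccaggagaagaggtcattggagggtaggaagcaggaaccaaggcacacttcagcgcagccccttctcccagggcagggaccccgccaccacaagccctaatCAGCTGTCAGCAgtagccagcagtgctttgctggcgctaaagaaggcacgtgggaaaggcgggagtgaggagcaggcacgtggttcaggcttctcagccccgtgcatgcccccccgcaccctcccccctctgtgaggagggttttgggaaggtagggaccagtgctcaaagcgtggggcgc

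Unc119 internal start: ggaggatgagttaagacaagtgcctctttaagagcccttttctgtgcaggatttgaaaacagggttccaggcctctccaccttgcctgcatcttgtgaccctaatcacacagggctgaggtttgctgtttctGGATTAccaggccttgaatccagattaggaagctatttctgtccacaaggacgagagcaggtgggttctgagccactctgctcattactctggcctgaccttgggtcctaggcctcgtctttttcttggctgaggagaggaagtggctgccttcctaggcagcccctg

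Cacna1f: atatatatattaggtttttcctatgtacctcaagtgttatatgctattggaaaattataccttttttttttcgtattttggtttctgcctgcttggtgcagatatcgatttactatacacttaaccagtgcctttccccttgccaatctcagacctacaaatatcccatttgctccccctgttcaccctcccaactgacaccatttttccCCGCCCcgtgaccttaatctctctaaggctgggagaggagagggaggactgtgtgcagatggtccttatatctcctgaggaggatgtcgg

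Pclo: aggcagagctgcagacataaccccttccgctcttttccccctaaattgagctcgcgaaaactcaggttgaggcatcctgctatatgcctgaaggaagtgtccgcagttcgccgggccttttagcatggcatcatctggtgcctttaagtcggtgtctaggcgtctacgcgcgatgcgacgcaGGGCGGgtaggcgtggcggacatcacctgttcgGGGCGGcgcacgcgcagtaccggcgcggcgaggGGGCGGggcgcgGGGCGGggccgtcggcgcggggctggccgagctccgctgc

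Bsn: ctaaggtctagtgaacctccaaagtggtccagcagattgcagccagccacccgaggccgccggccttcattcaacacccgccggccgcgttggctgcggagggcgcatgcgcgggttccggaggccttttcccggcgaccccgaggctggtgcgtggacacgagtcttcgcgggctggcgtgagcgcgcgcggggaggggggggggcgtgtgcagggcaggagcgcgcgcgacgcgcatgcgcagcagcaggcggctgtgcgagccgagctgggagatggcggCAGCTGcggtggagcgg

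The RIBEYE promoter held a TAATCC match on the reverse strand and a pair of overlapping TATAAA matches on opposite strands just before the start. The internal Unc119 start shown held a TAATCC match, Cplx3 an E-box beside an NRL-type motif, Cacna1f 1 GC box, Pclo 4 GC boxes and Bsn 1 E-box. A further internal Unc119 start under the same peak, chr11:78346460-78346759, held no TAATCC match and 1 NRL-type motif. Of all 32851 promoters of the same length in the table, 7.1% held TAATCC, 13.6% TATAAA, 19.5% TGCTGA, 16.3% CAGCTG and 35.7% GGGCGG on either strand. A match describes the letters only. The promoters also differed in CpG content, with 35 CpG dinucleotides in the 300 bases of Pclo and 38 in those of Bsn, against 8 at the RIBEYE start, 11 at Cplx3, 5 at Cacna1f and 2 at the internal Unc119 start. The median over the table was 7.0.

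The nearest promoter peaks of Bsn and Pclo held 8.29 and 7.16 CpG per 100 bases, and those of the other 8 genes held 0.68 (Cacna1f) to 2.46 (Cplx4). When the nearest promoter peaks of 11685 protein-coding genes were ranked by CpG density and cut into 4 groups of equal size, those 8 genes lay in the lowest group, Pclo in the third and Bsn in the highest. Over all these genes the median log2 change from P4 to P28 was 1.23 in the lowest group and 1.38 in the highest, with 32.5% and 36.3% of peaks called higher. The 8 ribbon synapse genes in the lowest group are the 8 whose peak was called higher at P28, which is a description of a set of 10 and was not tested. The other promoter peak of Ctbp2, over the CtBP2 start, held 7.14 CpG per 100 bases, about the density of the Pclo peak, and was called higher at both later ages. The Rims2 peak over the main starts, with 10.3 CpG per 100 bases, was not called at P28 (limma adjusted p = 0.0296).

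At P28, 8 of the 10 nearest promoter peaks were called higher than at P4 and none lower, against 34.2% called higher among the nearest promoter peaks of protein-coding genes. Bsn and Pclo were the 2 not called. The median change of the 10 peaks was 2.60 (range 0.47 to 3.45) on the log2 scale, beside a median of 1.36 over the protein-coding promoters and 0.69 over all peaks. In 9 of 10 genes every P28 library lay above every P4 library, which also held for 79.7% of the protein-coding promoters, so this count says little about these genes. At P10, 6 of 10 were called higher than at P4 and none lower, against 12.7% of the protein-coding promoters. Their median change was 2.00, beside 0.56 over the protein-coding promoters. Every P10 library lay above every P4 library in 9 of 10 genes, against 46.7%.

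These counts rest on few P4 reads and on the scaling of the libraries. When reads were thinned to the smallest library, 2 of the 10 peaks were called at P28 and 2 at P10, those of Cplx3 and Unc119 at both ages. Without P4 replicate 2, 5 of the 10 peaks were called at P28 (Cacna1f, Cacna2d4 and Cplx4 were lost), and without P4 replicate 1, 3 were called at P10 (Cacna2d4, Cplx4 and Cabp4 were lost). Without P28 replicate 1, which leaves batch 1 only, 7 were called at P28.

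**Figure D1:**
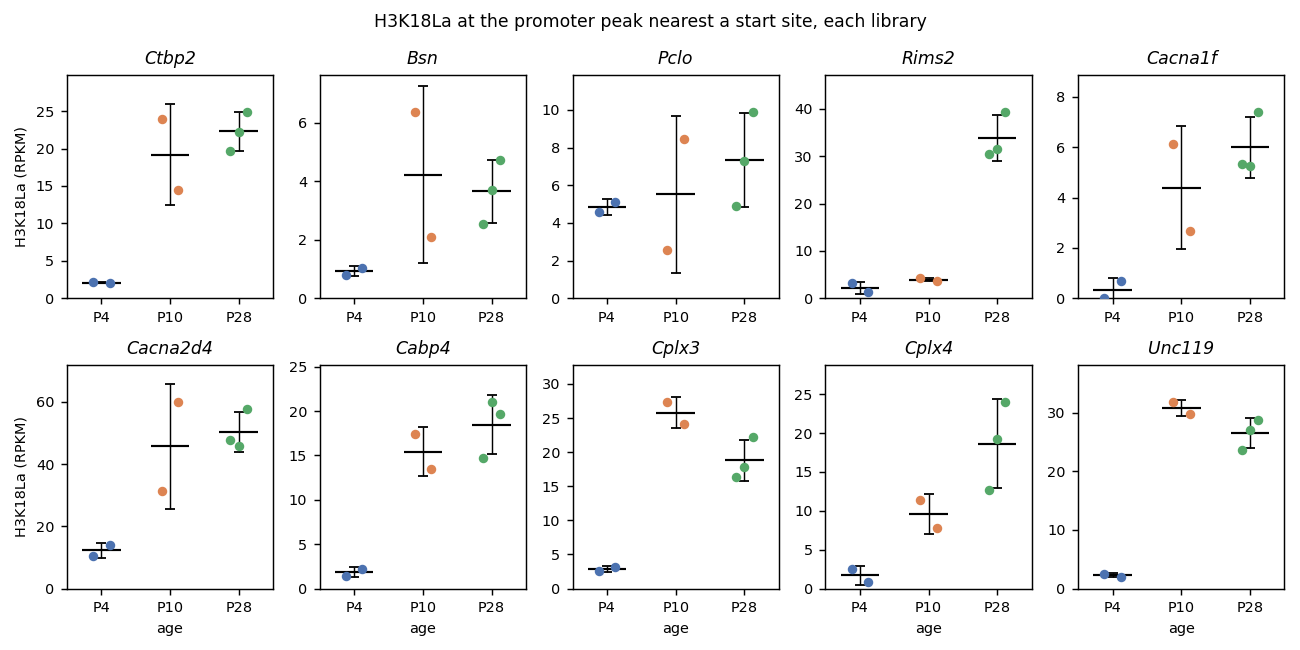
Level of H3K18La (RPKM, vertical axis, its own linear scale in each panel) in each library at P4, P10 and P28 at the promoter peak nearest a start site of each gene, with the mean as a bar and the SD as whiskers. In 9 of the 10 panels every P10 and P28 point lies above both P4 points, while the Pclo points overlap, and Rims2 is at 33.8 RPKM on average at P28 after 3.93 at P10.

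The libraries differed in depth and in how much of it fell in peaks. Reads in peaks ranged from 199970 (P10 replicate 1) to 8274373 (P28 replicate 2), and the median peak held 1 to 33 reads. The percentage of the normalized library size that lay in peaks was 16.3 and 17.6 at P4, 36.1 and 52.1 at P10 and 42.4 to 57.1 at P28, so it moved with age. When each library was scaled to its reads in peaks, the median change of all peaks from P4 to P28 shifted by -0.98 and the number of the 10 peaks called fell from 8 to 5 (Ctbp2, Cplx3, Cabp4, Unc119 and Rims2). In bulk retina, fewer cells of a type and less mark per cell cannot be told apart. The peaks nearest the start of 8 of 8 rod markers were called higher at both later ages, with a median change of 2.44 at P28, and their summed level was 23.8 to 27.6 RPKM at P4, 194 to 200 at P10 and 140 to 199 at P28. The part of rod number in the values of the ribbon synapse genes was not tested. For cones, 1 of 5 markers was called higher at P10 and 3 at P28. Their summed levels were 10.2 to 14.3 RPKM at P4, 69.4 to 78.0 at P10 and 41.4 to 59.3 at P28, so both P10 libraries were above every P28 library. The markers did not move together. Gnb3 held 56.5 RPKM on average at P10 and 26.5 at P28, and Cnga3 held 7.91 and 4.04. Gnat2, Arr3 and Pde6c had higher means at P28 than at P10, and the median change of the 5 from P10 to P28 was 0.37. For the other cell types, 1 of 4 bipolar, 1 of 4 amacrine, 1 of 4 Mueller glia and none of 1 horizontal, 3 ganglion, 2 pigment epithelium and 2 endothelial markers with a promoter peak was called higher at P28, against 34.2% of the protein-coding promoters, and none of 4 microglial markers had a promoter peak.

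Ctbp2 has separate starts for its 2 products. The nearest promoter peak, chr7:133013520-133016086, covers the start of RefSeq transcript variant 1 at position 133015247, which encodes the 988 residues of RIBEYE, and the other promoter peak, chr7:133123614-133125209, covers the first annotated starts of the gene, next to the start of variant 2, which encodes the 445 residues of the corepressor CtBP2. At the RIBEYE start the libraries held 2.12 and 2.09 RPKM at P4, 23.9 and 14.4 at P10, and 19.7, 22.2 and 24.9 at P28. Both later ages lay above P4 in every library and overlapped with each other. The mean rose 9.10-fold by P10 (log2 change 2.66, SE 0.32, adjusted p = 7.57e-04) and 10.6-fold by P28 (2.90, SE 0.29, adjusted p = 1.74e-04).

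The CtBP2 start was lower and moved the same way. Its libraries held 0.854 and 1.87 RPKM at P4, 6.79 and 10.4 at P10, and 10.5, 9.71 and 13.4 at P28, with every later library above both P4 libraries. It was called higher at P10 (2.03, SE 0.38, adjusted p = 3.68e-03) and at P28 (2.39, SE 0.35, adjusted p = 7.34e-04). The RIBEYE start took 72.1% ± 11.1 (SD, n = 2) of the reads of the 2 peaks at P4, 77.1% ± 11.2 (n = 2) at P10 and 76.2% ± 2.1 (n = 3) at P28. The P4 and P28 shares overlapped (two-sided exact permutation p = 0.8, where 0.2 is the smallest that 3 against 2 libraries can give). A further 23 peaks in the body of Ctbp2 carry the symbol Fgfr2 in the deposited annotation and are not among the 85. They were looked at after their values were seen, and 13 of them were called higher at P28 and none lower, against 18.9% of all peaks called higher.

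Bsn encodes bassoon, which anchors the ribbon at the active zone. Its nearest promoter peak, chr9:108189469-108190602, covers the start of the gene and was the weakest of the 10 at P28. The libraries held 0.801 and 1.05 RPKM at P4, 6.37 and 2.09 at P10, and 2.55, 3.69 and 4.72 at P28. Each later library was above both P4 libraries, but each P4 value stands for 2 reads and the P10 values for 4 and 3 reads. The peak was not called at P10 (1.31, SE 0.52, adjusted p = 0.0753) or at P28 (1.25, SE 0.47, adjusted p = 0.0563). At P28 it was called when libraries were weighted by their estimated quality (adjusted p = 6.82e-03) and without P10 replicate 2 (adjusted p = 8.30e-03), and over 17 alternative fits its adjusted p ran from 6.82e-03 to 0.681. The 8 internal peaks of Bsn had mean levels of 1.08 to 5.84 RPKM at P28 and none was called at that age.

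Pclo encodes piccolo, the partner scaffold of bassoon. Its nearest promoter peak, chr5:14514551-14515946, covers the main start and had the second highest level of the 10 at P4, above 96.0% of the protein-coding promoters. The libraries held 4.56 and 5.13 RPKM at P4, 2.59 and 8.47 at P10, and 4.89, 7.27 and 9.90 at P28. The ages overlapped, and the level was above 67.6% of the protein-coding promoters at P28. The change from P4 to P28 was 0.47 (SE 0.45, adjusted p = 0.41) and that to P10 was 0.00 (SE 0.49, adjusted p = 1.0). The direction depended on the scaling. At P28 the change was -0.88 (limma adjusted p = 0.0623) when scaled to reads in peaks, -0.91 (adjusted p = 0.0499) after quantile normalization and -0.05 (adjusted p = 0.917) with libraries centred on their median. At P10 it was -1.18 (adjusted p = 0.0349) and -1.23 (adjusted p = 0.0366) under the first 2 of these, and none was called. None of the 14 internal peaks was called at P28. Of the 4 peaks upstream of the gene, 2 were called lower at P28, both with 3 reads or fewer in each P4 library. Neither was called without P4 replicate 1, without P4 replicate 2, without P28 replicate 3 or with a pseudocount of 0.1, with adjusted p-values of 0.0117 to 0.0482 in these limma fits. The farther of these, chr5:14418840-14419325, held 2.81 and 3.68 RPKM at P4, none at P10, and 0.00, 0.632 and 0.00 at P28 (log2 change -1.84, SE 0.31, adjusted p = 1.54e-03).

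Rims2 encodes RIM2, an active-zone protein that binds Rab3 on vesicles and supports calcium channel function in photoreceptors. Its 3 promoter peaks did not move together. The one nearest an annotated start, chr15:39434192-39434621, is 430 bases wide, lies 236074 bases beyond the first coding start, inside the gene, and covers the start of the transcript Rims2-203. Its libraries held 3.17 and 1.39 RPKM at P4, 4.20 and 3.67 at P10, and 30.5, 31.4 and 39.4 at P28. The 3 P28 libraries stood far above the others, while the P10 libraries were only just above P4. Between P4 and P28 the change was 3.45 (SE 0.32, adjusted p = 1.40e-04), the largest of the 10 nearest promoter peaks. As a mean over the 3 promoter peaks of the gene it was 1.73. Between P4 and P10 the change of the nearest peak was 0.64 (SE 0.35, adjusted p = 0.191), and -0.37 (adjusted p = 0.459) when scaled to reads in peaks. At P4 the peak held 4 reads over both libraries, so the pooled read ratio of P28 to P4 was 13.8 with a 95% counting interval of 5.34 to 50.9. At P10 it held 3 reads over both libraries, which is at the floor, and the pooled ratio of P28 to P10 was 8.64 with an interval of 2.93 to 42.1.

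The peak over the main starts of Rims2, chr15:39196666-39199375, held 3.69 and 4.84 RPKM at P4, 4.66 and 7.85 at P10, and 8.91, 9.16 and 10.5 at P28. The P28 libraries were above all others, but the change of 1.00 from P4 (SE 0.32, adjusted p = 0.0296) was not called. The peak over the late internal starts, chr15:39659227-39660494, held 1.43 and 1.41 RPKM at P4, no reads at P10 and 2.28, 3.25 and 3.68 at P28, and was called at neither age. The share of the promoter-peak reads of Rims2 that lay in the internal 430-base peak was 7.1% ± 4.6 (SD, n = 2) at P4, 9.7% ± 4.0 (n = 2) at P10 and 32.8% ± 1.0 (n = 3) at P28. This share does not depend on the scaling of the libraries, and every P28 library exceeded every P4 library (two-sided exact permutation p = 0.2, the smallest possible, adjusted over 24 such tests to 0.436).

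Of the 22 internal peaks of Rims2, 9 were called higher at P28 and none lower, against 19.6% called higher of all exon, intron and untranslated-region peaks, and the median change of the 22 was 1.63, beside 0.77 over those peaks. The count of 9 rested on single libraries. It was 1 without P4 replicate 1, 2 without P4 replicate 2, 3 to 5 without any 1 of the P28 libraries and 14 without either P10 library, and it was 3 when scaled to reads in peaks. When thinned to the smallest library 0 were called higher and 1 lower, and 1 was also called lower when scaled to reads in peaks or median centred. The strongest internal peak at P28, chr15:39526680-39528210 in an intron, held 0.297 and 0.780 RPKM at P4, 2.36 and 5.15 at P10, and 9.08, 10.8 and 14.0 at P28 (3.00, SE 0.40, adjusted p = 4.81e-04). An intronic peak at chr15:39467461-39468017 was already high at P10, with 6.48 and 17.0 RPKM after 0.816 and 1.07 at P4, and held 6.59, 8.83 and 11.2 at P28. Adjacent intronic peaks at chr15:39301139-39302129 and chr15:39302620-39303362 had no read in any P4 or P10 library, and all 3 P28 libraries had reads there, at means of 2.19 and 1.38 RPKM. Both are among the 9 called. The merged set also keeps peaks found at a single age, so this pattern can follow from how peaks entered the set. Promoter peaks took 53.9% ± 0.3 (SD, n = 2) of the Rims2 promoter and internal reads at P4, 37.9% ± 3.0 (n = 2) at P10 and 36.8% ± 2.1 (n = 3) at P28, a fall in every later library (exact permutation p = 0.2 for P28 against P4, the smallest possible).

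**Figure D2:**
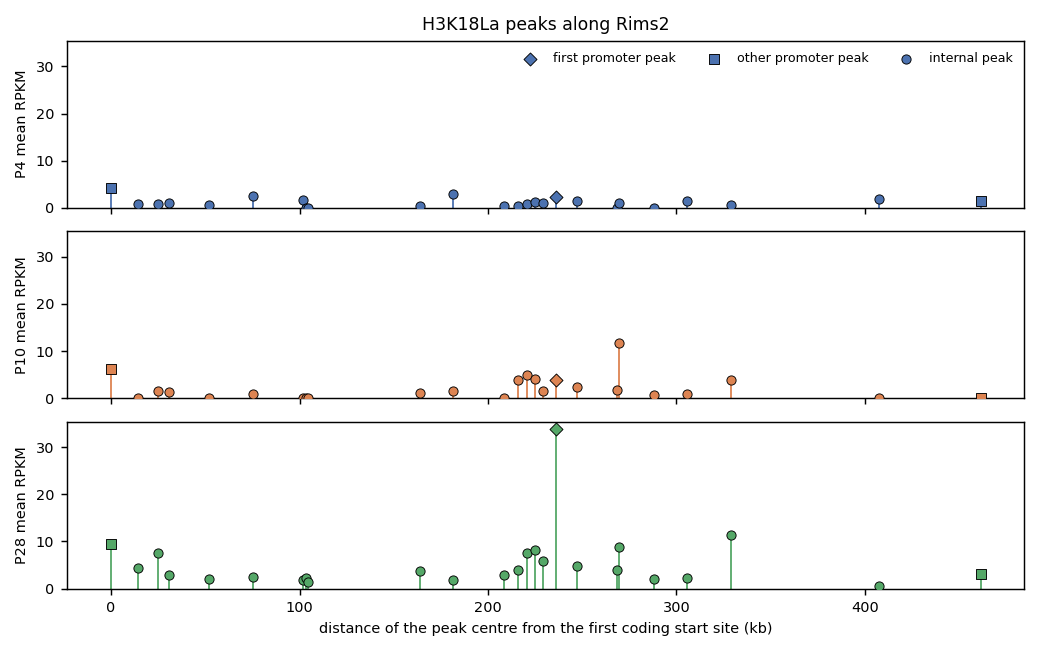
Mean level (RPKM, vertical axis) at P4, P10 and P28 of the 25 peaks of Rims2 against the distance of the peak centre from the first coding start site (kb, horizontal axis), with symbols for the kind of peak. The diamond, 236074 bases into the gene, is the 430-base promoter peak, which averages 2.28 RPKM at P4, 3.93 at P10 and 33.8 at P28.

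Cacna1f encodes the pore of the channel, Cav1.4. Its nearest promoter peak, chrX:7606969-7607855, covers the main starts. The libraries held 0.00 and 0.673 RPKM at P4, 6.11 and 2.67 at P10, and 5.32, 5.27 and 7.40 at P28. All later libraries were above P4, where the 2 libraries held 1 read in all. The change to P28 was 2.42 (SE 0.44, adjusted p = 2.28e-03) and that to P10, 1.98 (SE 0.48, adjusted p = 0.0112), was not called. The P28 call was lost when any P4 or P28 library was left out, with adjusted p-values of 0.0124 to 0.0302, and it held in 8 of 17 alternative fits. Because of the single P4 read, the pooled read ratio of P28 to P4 was 19.8 with a 95% counting interval of 3.49 to 787. Its 1 internal peak had no read at P4 and was not called.

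Cacna2d4 encodes the auxiliary subunit of the channel and had the highest promoter level of the 10 genes at every age. Its peak, chr6:119235450-119237289, covers the main start and the libraries held 10.6 and 13.9 RPKM at P4, 31.4 and 60.0 at P10, and 47.8, 45.7 and 57.7 at P28. Of the 11685 protein-coding promoters, 1 had a higher mean at P4, 19 at P10 and 5 at P28, so its rank did not rise with age. The later ages lay above P4 in every library, with a 3.72-fold higher mean at P10 (1.75, SE 0.33, adjusted p = 3.99e-03) and a 4.10-fold higher mean at P28 (1.96, SE 0.30, adjusted p = 1.06e-03). Both calls depended on the scaling. After quantile normalization the change was -0.49 at P10 and 0.05 at P28, and after scaling to reads in peaks it was 0.46 and 0.47, and none of these was called. Both calls were also lost without either P4 library, with adjusted p-values at P28 of 0.0290 without replicate 1 and 0.0178 without replicate 2. Of 17 alternative fits, 12 called the peak at P28 and 7 at P10.

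Within Cacna2d4, 2 of 11 internal peaks were called higher at P28, a share near the 19.6% of all exon, intron and untranslated-region peaks, and 0 of 11 were called without either P4 library. They lie side by side in the gene body at chr6:119275587-119278139 and chr6:119279543-119281437, with mean levels of 1.30 and 0.555 RPKM at P4 and 8.42 and 8.08 at P28. A promoter peak at chr6:119328391-119331241, which also covers starts of the gene Lrtm2, differed in course. It held 4.62 and 2.93 RPKM at P4, 10.8 and 13.3 at P10, and 4.69, 6.66 and 7.45 at P28, so both P10 libraries were above all others. It was not called at either age (adjusted p = 0.0114 at P10 and 0.156 at P28).

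Cabp4 encodes a calcium-binding protein that tunes the opening of Cav1.4. Its promoter peak, chr19:4139194-4141065, covers starts of Cabp4 and also a start of the gene Gpr152, and its signal cannot be divided between them. The libraries held 1.46 and 2.23 RPKM at P4, 17.4 and 13.5 at P10, and 14.7, 21.0 and 19.7 at P28. All later libraries were above P4, and P10 and P28 overlapped. The mean was 8.36-fold higher at P10 (2.53, SE 0.33, adjusted p = 9.34e-04), and the change to P28 was also called (2.77, SE 0.30, adjusted p = 2.16e-04). The internal peak 3′ of it, chr19:4138525-4139040, was also called higher at both ages, at means of 2.18 RPKM at P4, 15.1 at P10 and 11.1 at P28, with 4 reads in all at P4.

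Cplx3 and Cplx4 encode the complexins of retinal ribbon synapses, which bind assembled SNARE complexes. The Cplx3 promoter peak, chr9:57603966-57607001, spans 3036 bases and held 2.54 and 3.15 RPKM at P4, 27.4 and 24.1 at P10, and 16.3, 17.9 and 22.2 at P28. Both P10 libraries were above all P28 libraries, which in turn were above P4. The change was 2.80 at P10 (SE 0.29, adjusted p = 4.91e-04) and 2.36 at P28 (SE 0.27, adjusted p = 2.59e-04), and it was called in all 17 alternative fits at each age. From P10 to P28 the difference of -0.44 was not called (SE 0.27, adjusted p = 0.273).

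A second peak, just 3′ of the end of Cplx3 at chr9:57598784-57599945, had a clearer maximum at P10. It held 6.26 and 6.68 RPKM at P4, 20.2 and 29.9 at P10, and 7.45, 7.72 and 10.9 at P28. The P10 libraries stood above all others, and the P28 libraries were above P4 by little. It was called higher at P10 (1.78, SE 0.32, adjusted p = 3.35e-03) and not at P28 (0.36, SE 0.30, adjusted p = 0.345), and the fall from P10 to P28 of -1.42 (SE 0.30) had an adjusted p of 0.0185.

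The Cplx4 promoter peak, chr18:65969635-65971059, held 2.55 and 0.838 RPKM at P4, 11.4 and 7.75 at P10, and 12.7, 19.3 and 24.0 at P28. Here the ages did not overlap at all. The change was 2.03 at P10 (SE 0.43, adjusted p = 5.98e-03) and 2.90 at P28 (SE 0.39, adjusted p = 5.28e-04), an 11.0-fold higher mean at P28. The P10 call was lost in 12 of 17 alternative fits and the P28 call in 3, among them the fit without P4 replicate 2 (adjusted p = 0.0136 at P28). An intronic peak near the 3′ end of the gene, chr18:65958496-65960218, was called higher at P28 (2.12, SE 0.33, adjusted p = 1.09e-03), as was a peak just upstream of the gene at chr18:65972570-65973268 (2.08, SE 0.49, adjusted p = 8.36e-03).

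Unc119 showed the steepest change between P4 and P10. Its promoter peak, chr11:78344743-78347067, does not cover the first coding start, which lies 1261 bases upstream and under no peak. It covers starts inside the gene, of which the one shown above begins RefSeq transcript variant 5 at position 78345584. The promoter at the first coding start held 22 CpG and 2 GC boxes, against 2 CpG and no GC box at that internal start. The libraries held 2.54 and 2.05 RPKM at P4, 31.8 and 29.8 at P10, and 23.7, 27.0 and 28.8 at P28. Both P10 libraries were above all P28 libraries. The mean was 13.4-fold higher at P10 (3.28, SE 0.27, adjusted p = 3.81e-04) and 11.5-fold higher at P28 (3.06, SE 0.25, adjusted p = 1.13e-04), and both calls held in all 17 alternative fits.

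**Figure D3:**
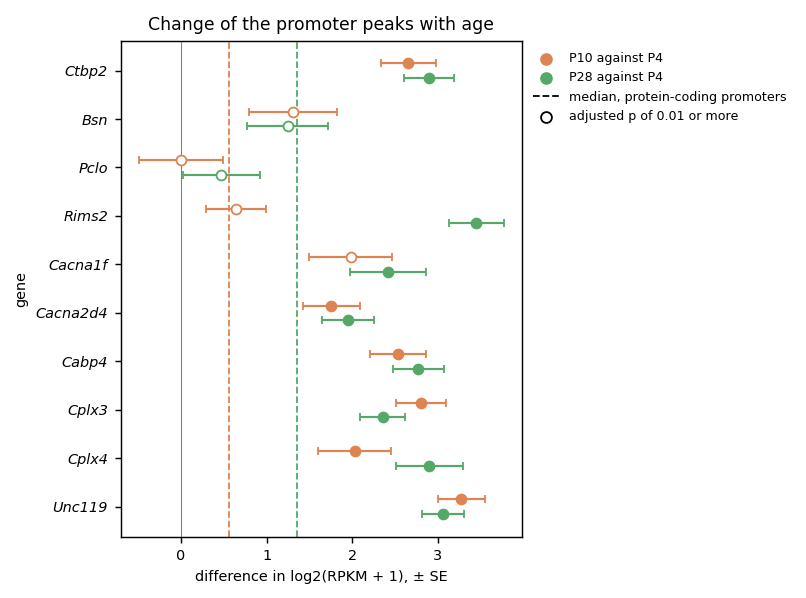
Difference in log2(RPKM + 1) from P4 (horizontal axis, ± SE) of the promoter peak nearest a start site of each gene at P10 and P28. Filled points have an adjusted p under 0.01, and dashed lines are the medians of 11685 protein-coding promoters, 0.56 at P10 and 1.36 at P28. Rims2 is the 1 gene with a filled P28 point far from its P10 point, and Bsn and Pclo have no filled point.

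The part of the change that was present at P10 is given as a description, and differences between the genes in it were not tested. In 7 of the 8 genes called at P28 the P10 level had covered most of the distance, at 69.9% (Cplx4), 81.8% (Cacna1f), 89.7% (Cacna2d4), 91.3% (Cabp4), 91.7% (Ctbp2), 107% (Unc119) and 119% (Cplx3) of the log2 change from P4 to P28. In Rims2 it was 18.6%, a value that rests on 4 reads at P4 and 3 at P10. The value of Cacna1f rests on 1 read at P4 and 6 at P10, and its P10 change was not called. That of Cacna2d4 depends on the scaling, since its P10 change was -0.49 after quantile normalization. Between P10 and P28 limma called none of the 10 peaks, with an unadjusted p under 0.05 in 2 of them, and a test of the recovered reads with limma voom called 1. The 2 with an unadjusted p under 0.05, neither of them called, were Rims2 (2.81, SE 0.32, limma adjusted p = 0.0113) and Cplx4 (0.87, SE 0.39, limma adjusted p = 0.152). Over all 108253 peaks 0.00185% were called higher in this comparison and 0.0% lower. The Rims2 peak is the one voom called, with an adjusted p of 3.74e-03, and over 17 alternative fits its adjusted p ran from 1.25e-03 to 0.0632.

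At P28 the levels of the 10 promoter peaks, per length, fell into steps. Cacna2d4 (50.4 RPKM ± 6.4, SD, n = 3) was above Rims2 (33.8 ± 4.9), and Rims2 was above Unc119 (26.5 ± 2.6), with no overlap of libraries at either step. Unc119 and Ctbp2 (22.3 ± 2.6) overlapped, as did Ctbp2, Cplx3 (18.8 ± 3.0), Cplx4 (18.7 ± 5.7) and Cabp4 (18.5 ± 3.3). Pclo (7.35 ± 2.5) and Cacna1f (6.00 ± 1.2) lay below these and overlapped with each other, and Bsn (3.65 ± 1.1) lay below both, with 4.72 RPKM in its highest library against 4.89 in the lowest of Pclo.

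Over all 85 peaks, 23 were called higher and 2 lower at P28, against 18.9% and 4.21% of all peaks, and 11 were called higher and 4 lower at P10, against 11.4% and 7.34%. Every P28 library was above every P4 library at 59 of the 85 peaks (50.6% of all peaks), and every P10 library was above every P4 library at 35 (36.1% of all peaks), so at P10 the share over the whole set is near that of all peaks. Of the 60 internal peaks, 13 were called higher and none lower at P28, against 19.6% called higher of all exon, intron and untranslated-region peaks, so this count is near the background. It was 1 without P4 replicate 1, 3 without P4 replicate 2 and 28 without either P10 library. When scaled to reads in peaks 4 were called higher and 2 lower, and when thinned to the smallest library 1 higher and 2 lower. The median change of the 60 internal peaks was 1.21, beside 0.77 over that background. Of the 10 peaks outside the genes 1 was called higher and 2 lower.

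The number of calls over the 85 peaks depended on single libraries and on scaling. At P28 it was 25 in all, 7 without P4 replicate 1, 9 without P4 replicate 2, 15 without P28 replicate 2, 13 without P28 replicate 3, 44 without P10 replicate 1 and 45 without P10 replicate 2. At P10 it was 15 in all, 4 without either P4 library, 8 without P28 replicate 1 and 6 without P28 replicate 2. The share of calls at P28 that were higher was 92.0% as deposited, 75.0% with libraries centred on their median, 68.2% after quantile normalization and 60.0% when scaled to reads in peaks. At P10 it was 73.3% as deposited and 38.5% when scaled to reads in peaks.

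**Figure D4:**
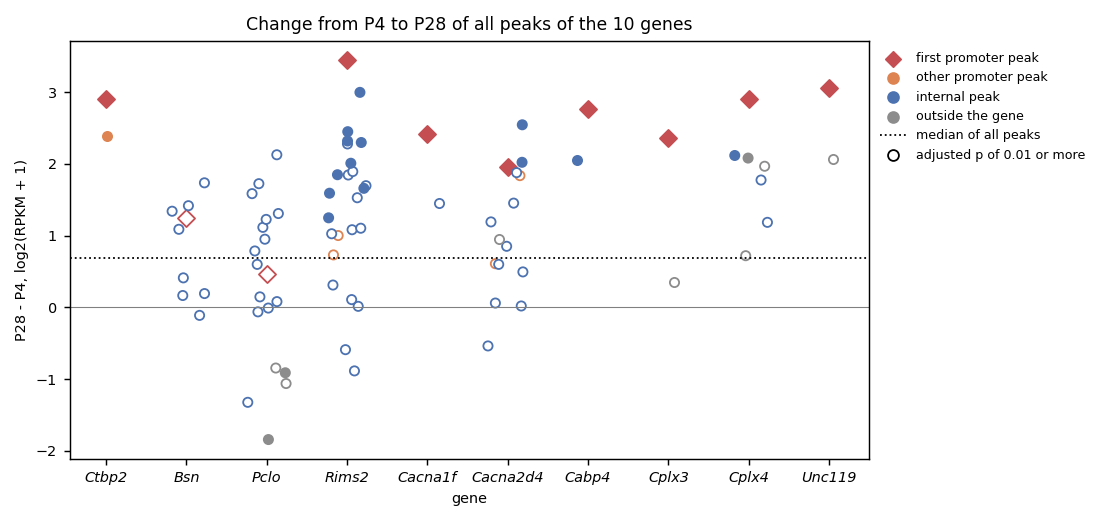
Change from P4 to P28 in log2(RPKM + 1) (vertical axis) of each of the 85 peaks, by gene and kind of peak, with filled points for an adjusted p under 0.01. The dotted line is the median of all peaks, 0.69. The filled points below 0 are the 2 upstream peaks of Pclo, and Rims2 has the most filled internal peaks, 9 of 22.

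The promoter peak was then compared with the internal peaks of its own gene. The difference of log2(RPKM + 1) between the nearest promoter peak and the mean of the internal peaks was higher in every P28 library than in every P4 library in 6 of 7 genes, against 45.3% of the 6408 protein-coding genes with both kinds of peak. Over those genes the median change of this difference from P4 to P28 was 0.45. In Rims2 the difference, which is that of its nearest promoter peak and not of its promoter peaks together, went from 0.88 ± 0.58 (SD, n = 2) to 2.97 ± 0.15 (n = 3), and in Cacna2d4 from 2.20 ± 0.12 to 3.19 ± 0.25. In Pclo it was lower in every P28 library, by -0.26 on average. The two-sided exact permutation p was 0.2 in each gene, the smallest that 3 against 2 libraries allow. The count was 3 of 7 with a pseudocount of 0.1 and 4 of 7 when scaled to reads in peaks, both chosen after seeing the data.

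Related genes were taken from lists, by the same nearest promoter peak. The first list holds presynaptic genes of photoreceptor and other terminals. Of 24 other presynaptic genes, all with a promoter peak, 8 were called higher at P10 and 15 at P28, and none lower, against 12.7% and 34.2% of the protein-coding promoters called higher. Their median change at P28 was 2.15, beside 1.36 over those promoters. Mpp4, a scaffold of photoreceptor terminals, went from 3.88 RPKM ± 1.14 (SD, n = 2) at P4 to 37.0 ± 8.2 (n = 3) at P28 (2.96, SE 0.29, adjusted p = 1.60e-04), and Sv2b, a synaptic vesicle protein, from 3.04 ± 0.58 to 29.6 ± 5.7 (2.91, SE 0.27, adjusted p = 1.42e-04). At the other end of the list Unc13c, a vesicle-priming protein, went from 3.61 ± 0.13 to 3.20 ± 1.75 RPKM and Sytl2 from 2.28 ± 1.44 to 2.04 ± 0.13, neither called. Vamp2 in this list is a gene that the study named from these libraries, so its count is not independent.

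Of 19 paralogs of the 10 genes, 16 had a promoter peak. Of these, 4 were called higher at P10 and 4 at P28, against 12.7% and 34.2% of the protein-coding promoters called higher. The median change of the 16 at P28 was 1.00, below the 1.36 of all protein-coding promoters. Rims1 is in both this list and the presynaptic one. Rims3, a short relative of RIM2, held 0.00 and 4.21 RPKM at P4 and 16.5 to 22.4 at P28 (3.20, SE 0.58, adjusted p = 2.24e-03), and Unc119b held 0.00 and 1.60 RPKM at P4 and 6.01 to 11.6 at P28 (2.56, SE 0.50, adjusted p = 3.25e-03). The neuronal channel genes Cacna1b and Cacna2d1, which belong to the same families as Cacna1f and Cacna2d4, changed by -0.28 (SE 0.38) and -0.27 (SE 0.47) and were not called. The difference between the ribbon synapse genes and their paralogs was not tested.

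Of 16 genes listed for the synaptic cleft and its postsynaptic partners, 15 had a promoter peak, and 6 were called higher at P10 and 9 at P28, against the same 12.7% and 34.2%, with a median change of 1.95 at P28 beside 1.36. Photoreceptors themselves make some of these proteins, such as LRIT3 and pikachurin (Egflam), so the count is not one of ON-bipolar cells. Gnb5, a G protein subunit that partners RGS proteins, held 0.345 and 0.453 RPKM at P4 and 19.1 ± 3.6 (SD, n = 3) at P28 (3.83, SE 0.29, adjusted p = 1.13e-04), and Lrit3, a leucine-rich repeat protein of the synapse, held 0.329 and 0.864 RPKM at P4 and 16.6 to 16.9 at P28 (3.49, SE 0.30, adjusted p = 1.25e-04). Grm6, the glutamate receptor of ON-bipolar cells, held 0.811 and 1.54 RPKM at P4 and 1.96 to 2.93 at P28 and was not called (0.68, SE 0.48, adjusted p = 0.275). Rgs7 was not called either (0.96, SE 0.35, adjusted p = 0.0484).

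**Figure D5:**
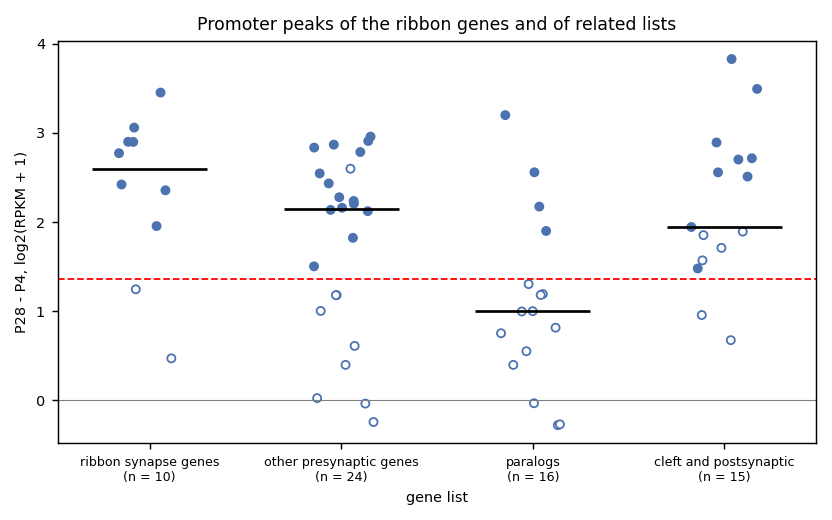
Change from P4 to P28 in log2(RPKM + 1) (vertical axis) at the nearest promoter peak of the 10 ribbon synapse genes, 24 other presynaptic genes, 16 paralogs and 15 cleft and postsynaptic genes. Rims1 is in both the presynaptic and the paralog list. Filled points have an adjusted p under 0.01, bars are list medians (2.60, 2.15, 1.00 and 1.95) and the dashed line is the median of all protein-coding promoters, 1.36.

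The promoters most like the median profile of the 10 peaks were those of Srxn1, Heg1, Fgd4, Gramd1b and Ppm1b, with root mean square differences of 0.12 to 0.17 in log2(RPKM + 1) over the 7 libraries. Srxn1, the closest, had means of 2.15 RPKM at P4, 12.2 at P10 and 18.5 at P28.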

How the data were processed

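CUT&Tag for H3K18La gave 7 libraries. The study describes 3 replicates per age. Further P4 and P10 replicates were not analysed here and may have entered the merged peak set. According to the methods, the authors mapped reads to GRCm38, called peaks with MACS, kept peaks found in 2 or more replicates, merged the ages, annotated the result and counted reads in it. The submitters' processing notes name MACS, ChIPseeker 1.34.1 and edgeR 3.40.2. The deposited values are RPKM, scaled by the authors with factors from large genomic windows. The authors' table of differential binding (fold changes, p-values, FDR and means) was not used. RPKM times peak width gave whole reads for 100.0% of the values (tolerance 0.01 read). The effective library sizes ran from 553918 to 16269958, a 95% interval covers counting error only, and a level of 3 reads at the median width of 757 bases was 0.244 to 7.16 RPKM. No table column was left unmatched (0).

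Age was fitted with limma 3.58.1 (R 4.3.3) on log2(RPKM + 1) over all 7 libraries and 108253 peaks, with a variance trend, no covariate and no filter. The code was tested on simulated data. Calls were made at an adjusted p under 0.01 (Benjamini-Hochberg, over all peaks). Because the deposited unit is RPKM, limma took the place of the study's count model, and limma voom on the recovered reads was an alternative. Groups came from the labels. Annotated starts are from GENCODE (GRCm38), and sequences from RefSeq (GRCm38.p6). Of a related list, the 2 genes with the largest and the 2 with the smallest change to P28 are named, with the 5 promoters most like the median profile of the 10 genes. The genes, lists and tests were chosen with earlier results of these data known. Alternatives were another pseudocount, a filter on mean RPKM of 1, 3 other scalings, no trend, library weights, a replicate block, thinning, and each library left out.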

Additional observations from a re-analysis of the deposited data

How the results depend on the processing

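Of the 10 promoter peaks, the number called at P28 was 8, and 5 when scaled to reads in peaks, 2 when reads were thinned to the smallest library, and 5 to 9 with a library left out. At P10 it was 6, and 2 when thinned, and 3 to 7 with a library left out. Between P10 and P28 it was 0, and 1 (Rims2) with a pseudocount of 0.1, median centring, library weights or voom, and 0 to 1 with a library left out. Over the 85 peaks, the number called at P28 was 25, and 15 when scaled to reads in peaks, 50 with library weights, 6 when thinned, 45 with voom, and 7 to 45 with a library left out. At P10 it was 15, and 8 after quantile normalization, 8 without a variance trend, 6 with library weights, 7 when thinned, and 4 to 20 with a library left out. With the replicate number as a block (replicate block) 7 of the 10 promoter peaks were called at P28, 6 at P10 and 0 between P10 and P28, and 16 and 14 of the 85 peaks at P28 and P10. Same-numbered libraries had correlations of deviations between -0.001 and 0.047. With 2 libraries at P4 and at P10 and few reads per peak there, these values cannot show whether the numbers pair the libraries. Cacna2d4 at P10 turned to -0.49 after quantile normalization, and the cause was not tested. The fall of Rims2 in the share of promoter reads was -18.4 to -16.5 points with a library left out. The count of genes whose nearest promoter peak gained on internal peaks was 3 with a pseudocount of 0.1. It was 6 with any P4 or P28 library left out, which is no check, since leaving out a library cannot lower this count. Of 173 single-peak values under these alternatives, 146 kept both direction and call (or size) at P28 and 139 at P10, and 3 and 7 changed sign. The sign changes were those of Pclo, which was called under none of them, of Cacna2d4 at P10 (above) and of Rims2 at P10, at -0.37 when scaled to reads in peaks and -0.07 as a mean over its promoter peaks. A filter on mean RPKM of 1 kept all 10 promoter peaks. Depth limits the P4 and P10 values most, where a peak of 3 reads or fewer was common.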
